A study of Drosophila melanogaster with 36 samples.

Results

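Genes that carry, make and split trehalose and other sugars were followed in the brain and in sorted glia of aging flies. The 7 genes were taken by their symbols from the table of read counts. They were Tret1-1 (a trehalose carrier), its neighbouring copy Tret1-2, Treh (trehalase), Tps1 (trehalose-6-phosphate synthase), and the sugar carriers Glut1, sut1 and sut2. All 7 symbols were found among the 17562 genes of the table, and each was measured in all 36 libraries.

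RNA came from brains of female Drosophila melanogaster at day 5 and day 70, with 3 libraries in each of 12 groups of tissue, driver line and age. Flies carried GFP under 1 of 3 GAL4 driver lines, of which GMR10E12 and GMR56F03 are active mainly in ensheathing glia, the cells that wrap neuropil, and GMR86E01 is active in astrocyte-like glia. GFP+ cells were sorted from pools of dissociated brains kept in actinomycin D, which blocks new transcription, and the unsorted suspension of the same brains is called whole brain. No mutant or drug-treated group was part of the comparisons. A sorted library holds the cells in which its driver was active and the sort gate was met, and since astrocyte-like glia came from 1 driver line, glia type and line cannot be told apart there.

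Trehalose is the main sugar of insect hemolymph. The fat body makes it from glucose phosphates with trehalose-6-phosphate synthase, and glia at the brain surface, which form the blood-brain barrier, take it up through Tret1-1, a facilitated carrier. Trehalase splits trehalose into glucose for glycolysis, whose products glia pass on to neurons. Glut1 belongs to the family of facilitated glucose carriers known from mammals, and sut1 and sut2 are predicted members of the same superfamily.

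In dm6 coordinates, Tret1-1 (FBgn0050035) lies on chromosome arm 2R from 11665768 to 11674782 and Tret1-2 (FBgn0033644) from 11675935 to 11678014, both on the plus strand with a gap of 1152 bases and no gene between them. These neighbours are similar copies, so reads that fit both could be counted for either. The pair sut1 (FBgn0028563, 2R, 8082976 to 8087151) and sut2 (FBgn0028562, 2R, 8087396 to 8089297) is likewise adjacent on the plus strand, with a gap of 244 bases. Treh (FBgn0003748) lies on 2R from 21074018 to 21088945, Tps1 (FBgn0027560) on 2L from 4388327 to 4392778, and Glut1 (FBgn0264574), with 20 annotated transcripts, on 3L from 914074 to 993788, all on the plus strand. Exons of 3 of the genes overlap a gene on the opposite strand: Treh and Rbpn-5 share 560 bases, sut1 and slv 183 bases, and Tps1 and CG3652 9 bases. Whether the counting used strand is not given in the sources used here, so counts within these overlaps are uncertain.

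Total counts per library ranged from 912285 to 17060052 with a median of 6611363, and 3 counts, the smallest level taken as detected, stood for 0.894 to 24.9 normalized counts (counts divided by the library's DESeq2 size factor). These limits cover counting error only, since PCR copies are not independent molecules. Over pairs of replicates, Pearson's r of log2 values across 8763 genes was 0.733 to 0.977. The labelled tissues were checked against marker genes. The pan-glial gene repo was higher in both kinds of sorted glia than in whole brain, and 11 of 11 neuronal markers were lower. The astrocyte-like markers Gat, alrm, Eaat1, AANAT1 and wun2 were higher in sorted GMR86E01 libraries than in ensheathing glia (5 of 5), but were also present in sorted ensheathing glia. Of 5 ensheathing glia markers, 4 were higher and 1 lower in sorted ensheathing glia than in whole brain, and 2 of 5 were higher there than in astrocyte-like glia. Cortex glia markers were also higher in sorted ensheathing glia than in whole brain (3 of 3). Markers of hemocytes, blood cells that engulf debris, were higher in sorted glia than in whole brain as well (6 of 6 in each).

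**Figure D1:**
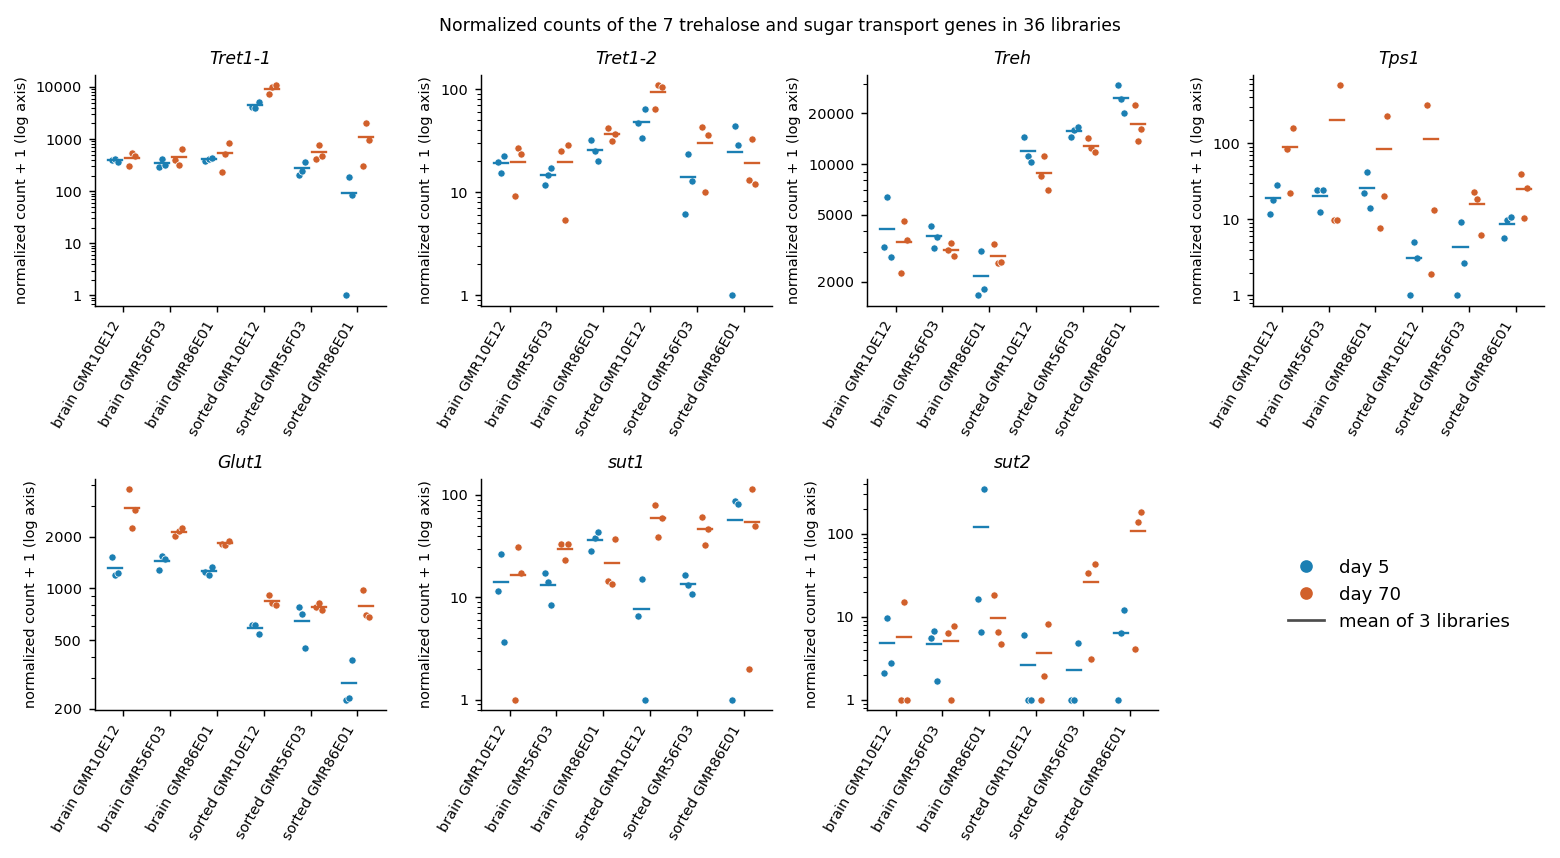
Normalized counts (plus 1, log axis) of the 7 genes in the 36 libraries, by tissue and driver line (horizontal axis) and age (color), with 1 point per library and a bar at the mean of 3 libraries. Tret1-1 stands highest in sorted GMR10E12 glia, Treh in sorted glia of every line, and Glut1 in whole brain, while Tps1, sut1, sut2 and Tret1-2 stay low apart from a few libraries.

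The 7 genes differed widely in level. Per kilobase of exon, Treh had 4803 normalized counts in sorted astrocyte-like glia, 2390 in sorted GMR10E12 glia, 3262 in sorted GMR56F03 glia and 742 in whole brain. That placed Treh 126th among the 12488 genes with counts in sorted GMR86E01 libraries and 429th of 15070 in whole brain. Tret1-1 reached 2039 per kilobase in sorted GMR10E12 glia, rank 235 of 12617 genes, against 123 to 174 in the other sorted glia and 127 in whole brain. Glut1 had 167 per kilobase in whole brain, 65.4 in sorted ensheathing glia and 48.8 in sorted astrocyte-like glia. The remaining 4 genes had 41.1 per kilobase or less in every one of these sets of libraries. The mean of Glut1 exceeded that of Tret1-1 per kilobase in whole brain, and Tret1-1 exceeded Glut1 in every sorted GMR10E12 library. In young GMR56F03 glia the means were 80.6 per kilobase for Tret1-1 and 59.0 for Glut1, with Glut1 higher in 1 of 3 libraries. In young astrocyte-like glia they were 26.7 and 25.6, with Glut1 higher in 2 of 3 libraries, and in old ones 322 and 72.1.

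Calls were made with edgeR's quasi-likelihood test at a Benjamini-Hochberg adjusted p below 0.05 over all genes tested in a comparison. In bulk samples, a change in the share of a cell type and a change in RNA per cell cannot be told apart. Of the 7 genes, 5 were called between sorted ensheathing glia and whole brain (3 higher, 2 lower), where 55.4% of all 9984 genes were called. In astrocyte-like glia against whole brain 2 of 7 were called (1 higher, 1 lower; 48.6% of 9369 genes). Calls were thus common among all genes in both comparisons with whole brain. Between ensheathing and astrocyte-like glia 3 of 7 were called (2 higher, 1 lower in ensheathing glia; 12.0% of 9592 genes), and between the 2 ensheathing lines 3 of 6 (14.6% of 9265 genes), with sut2 filtered out. With age, 4 of 6 genes changed in ensheathing glia (18.2% of 9265 genes), 1 of 7 in astrocyte-like glia (6.44% of 8585 genes) and 2 of 7 in whole brain (21.4% of 9650 genes).

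The age effects themselves were also compared. Those of ensheathing and astrocyte-like glia differed for 2 of 7 genes, Tret1-1 and Glut1 (11.9% of 9592 genes). Between GMR56F03 and GMR10E12 the age effect differed for 0 of 6 genes by edgeR and by DESeq2, with 0 at an unadjusted p under 0.05, where 0.691% of 9265 genes were called. Between ensheathing glia and whole brain it differed for 0 of 7 genes by both tools, with 2 at an unadjusted p under 0.05, where 4.26% of 9984 genes were called. Between astrocyte-like glia and whole brain it differed for 0 of 7 genes by edgeR and 1 (sut2) by DESeq2, with 4 at an unadjusted p under 0.05, where 4.28% of 9369 genes were called. With sorted and unsorted libraries of the same line, age and number taken as pairs in a block, the calls over all genes in those last 2 comparisons numbered 269 in place of 425 and 212 in place of 401.

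**Figure D2:**
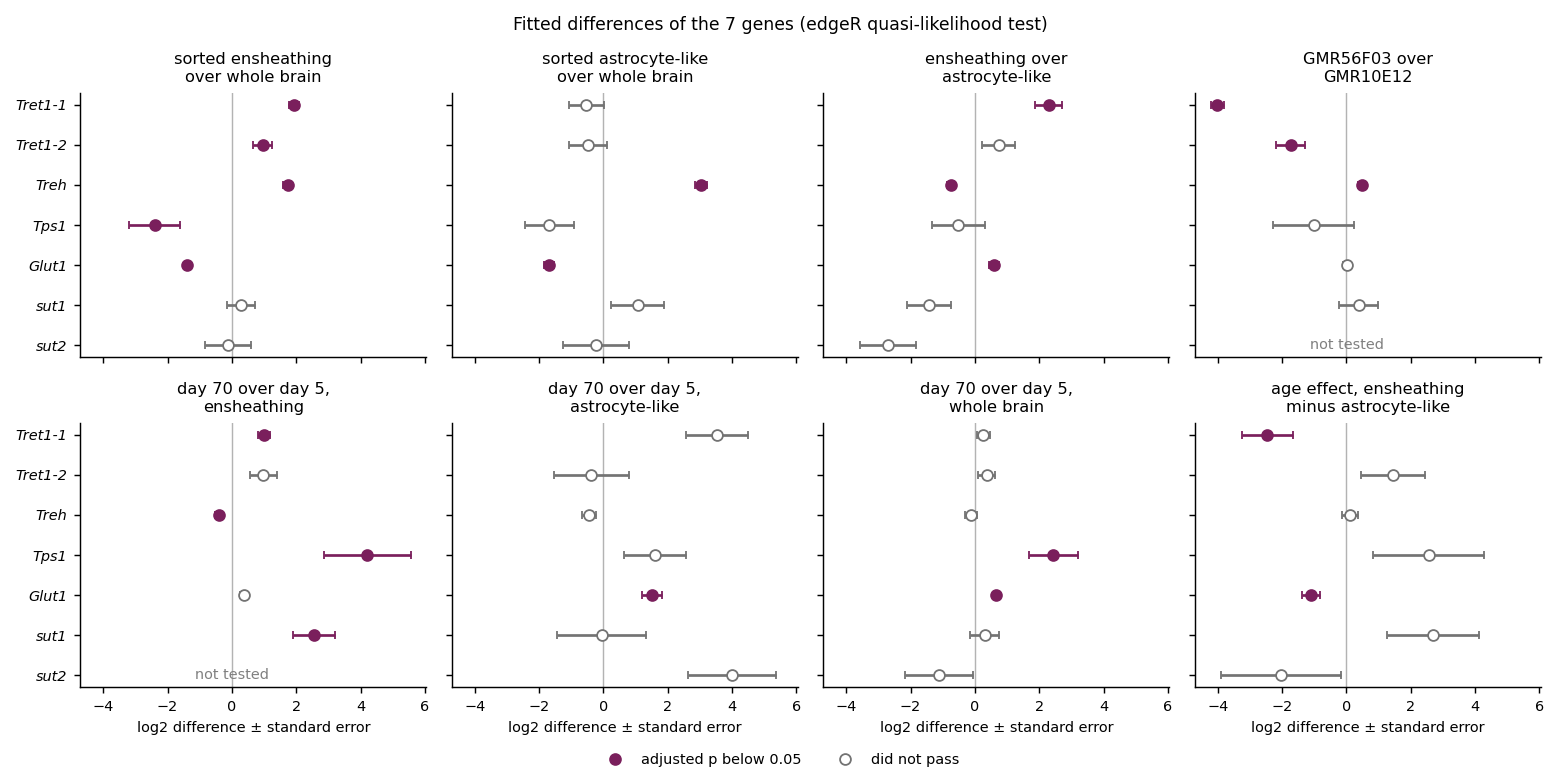
Log2 differences with standard errors of the 7 genes in 8 comparisons, from edgeR's quasi-likelihood test, with filled points at an adjusted p below 0.05. Tret1-1 lies at -4.02 for GMR56F03 over GMR10E12, and Treh at 3.04 for astrocyte-like glia over whole brain.

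Tret1-1, the trehalose carrier, had the largest difference between driver lines of the 7 genes. In sorted GMR10E12 glia it had 4121, 4009 and 5191 normalized counts at day 5 and 7257, 9832 and 10886 at day 70. In sorted GMR56F03 glia it had 203, 243 and 370 at day 5 and 415, 785 and 468 at day 70. Every GMR10E12 library was above every GMR56F03 library, also across ages. The means were 6883 ± 2953 (SD, n = 6) and 414 ± 208 (SD, n = 6), a log2 difference of GMR56F03 over GMR10E12 of -4.02 (standard error 0.21, adjusted p = 5.71e-08, edgeR), or 16.2-fold higher in GMR10E12.

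In sorted astrocyte-like glia Tret1-1 had 0, 185 and 85.3 normalized counts at day 5 and 298, 1992 and 969 at day 70. The library at 0 was the shallowest sorted one, with 1514977 counts, where 3 counts stand for 14.0 normalized counts. In whole brain Tret1-1 lay between 234 and 857 with a median of 412 over 18 libraries, and its 6 groups, with means of 345 to 534, overlapped. In the order of the 12 group means, sorted GMR10E12 glia at day 70 stood above the same glia at day 5 with no overlap of libraries. The latter stood above astrocyte-like glia at day 70 without overlap, and astrocyte-like glia at day 5 lay below all other groups. The other 8 of the 11 neighbouring pairs overlapped.

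Against whole brain, Tret1-1 was higher in sorted ensheathing glia by 1.94 on the log2 scale (standard error 0.15, adjusted p = 2.73e-10, edgeR). This rested on GMR10E12: with GMR10E12 as the ensheathing line the log2 difference was 3.94 (adjusted p = 2e-08), and with GMR56F03 it was -0.02 (adjusted p = 0.948). Against astrocyte-like glia the log2 difference was 2.29 (standard error 0.43, adjusted p = 0.00162). It was 4.32 with GMR10E12 alone (adjusted p = 0.000207), 0.28 with GMR56F03 alone (adjusted p = 0.815), 1.08 at day 70 alone (adjusted p = 0.316) and 2.09 without the libraries numbered 3 (adjusted p = 0.0687).

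With age, Tret1-1 rose in sorted ensheathing glia by 1.00 on the log2 scale (standard error 0.19, adjusted p = 0.00261, edgeR). In both lines all 3 old libraries were above all 3 young ones, with log2 differences of 1.02 for GMR10E12 alone (adjusted p = 0.0134) and 1.00 for GMR56F03 alone (adjusted p = 0.0466). The call held without any 1 of the 12 libraries and ended in 1 fit over all 36 libraries (adjusted p = 0.0641) and in a fit that ignored the driver line (adjusted p = 0.562). In astrocyte-like glia the old libraries were again above the young ones, with a log2 ratio of 3.53 (standard error 0.97) that did not pass the test (adjusted p = 0.0714). The old libraries had 298, 1992 and 969 normalized counts of Tret1-1. Beside these stood summed surface glia markers of 903, 2173 and 2044 (943 to 1290 in young libraries). Summed photoreceptor markers were 1864, 15197 and 18954 (1984 to 8415 in young libraries). Taken singly, 0 of the 7 surface glia markers were called with age, all 7 with positive differences (median log2 0.61). Of the 6 photoreceptor markers 0 were called, and 2 had positive differences (median -0.43). The part of these cells was not tested. The difference in Tret1-1 passed without the filter on low counts (adjusted p = 0.0139) and in 1 fit over all 36 libraries (adjusted p = 0.000104).

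The age effect on Tret1-1 was smaller in ensheathing than in astrocyte-like glia by 2.46 on the log2 scale, so the interaction term was -2.46 (standard error 0.78, adjusted p = 0.0495, edgeR). That call was at the threshold: DESeq2 gave an adjusted p of 0.0591, and it ended without the libraries numbered 2 (-2.80, adjusted p = 0.141) or 3 (-2.20, adjusted p = 0.291) and with either ensheathing line alone (adjusted p = 0.221 for GMR56F03 and 0.162 for GMR10E12). In whole brain no age effect on Tret1-1 was called (means of 382 ± 49.8 at day 5 and 475 ± 194 at day 70, SD, n = 9 each). The age effect in ensheathing glia exceeded that in whole brain by 0.77 (adjusted p = 0.165), which did not pass.

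Other genes differed between the 2 ensheathing lines in the same direction as Tret1-1. Of 7 markers of surface glia, which form the blood-brain barrier, 3 were lower in GMR56F03: Mdr65, a drug efflux pump, at a log2 ratio of -3.58 (adjusted p = 1.57e-05, edgeR), Indy, a citrate carrier, at -2.49 (adjusted p = 2.48e-07), and Gli, a junction protein, at -1.98 (adjusted p = 0.0249). The receptor gene moody went the other way, at 0.70 (adjusted p = 0.00126), and cold, sinu and crok did not pass. The summed level of the 7 markers was 2643 to 5639 normalized counts in sorted GMR10E12 glia, 1519 to 2488 in sorted GMR56F03 glia and 903 to 2173 in sorted astrocyte-like glia. Mdr65 was at 0 in 1 and Gli in 2 of the 36 libraries. With age in ensheathing glia, 3 of the 7 rose as Tret1-1 did: Indy (1.31), cold (1.26) and sinu (0.86). Summed photoreceptor markers also differed between the lines, from 15946 to 40885 in GMR10E12 and from 1964 to 11959 in GMR56F03. The sums were higher at day 70 in both lines with no overlap. They went from 15946 to 25355 at day 5 to between 27577 and 40885 in GMR10E12, and from 1964 to 4242 to between 6339 and 11959 in GMR56F03. The gene ninaE weighed most in them, with a peak of 38664 normalized counts against 3862 for trp, the next highest. Taken singly, 1 of the 6 photoreceptor markers rose with age and 5 did not pass. Only 2 of the 6 had positive age differences, with a median log2 difference of -0.097. Between the lines, 2 of the 6 were lower in GMR56F03 and 4 did not pass. Summed surface glia markers were likewise higher at day 70 in both lines, 4003 to 5639 against 2643 to 3222 in GMR10E12 and 2415 to 2488 against 1519 to 1580 in GMR56F03. The part of either cell type in the differences of Tret1-1 between lines and ages was not tested.

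**Figure D3:**
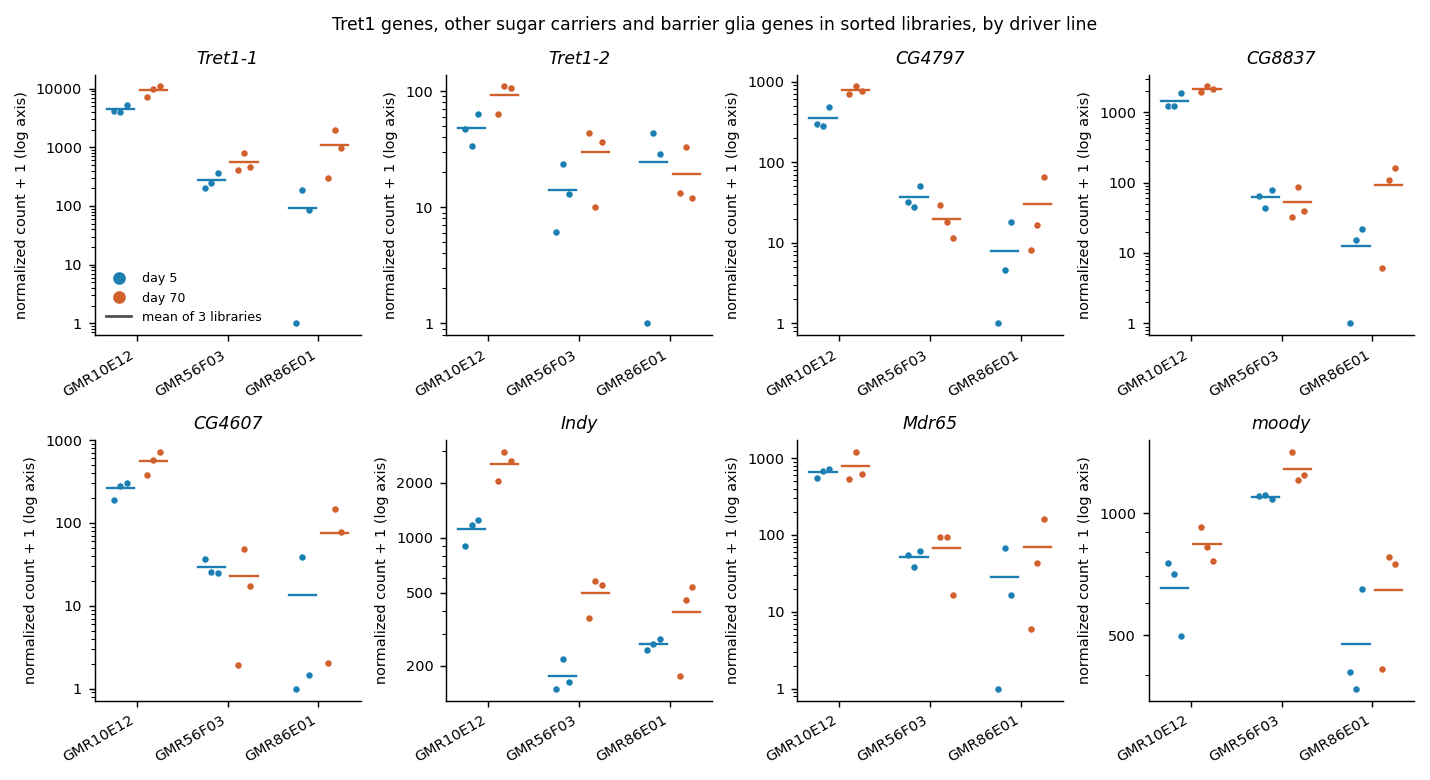
Normalized counts (plus 1, log axis) of Tret1-1, Tret1-2, 3 other sugar carriers (CG4797, CG8837, CG4607) and 3 surface glia genes (Indy, Mdr65, moody) in sorted libraries of the 3 driver lines (horizontal axis), by age (color), with 1 point per library and a bar at the mean of 3 libraries. All but moody stand highest in GMR10E12.

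Tret1-2, the neighbouring copy, was also highest in sorted GMR10E12 glia, at a much lower level than Tret1-1. In sorted GMR10E12 glia it had 46.5, 32.6 and 62.6 normalized counts at day 5 and 62.7, 109 and 105 at day 70. In all other groups it lay between 0 and 42.8. The lowest old GMR10E12 library was level with the highest young one.
The log2 difference of GMR56F03 over GMR10E12 was -1.74 (standard error 0.44, adjusted p = 0.0162, edgeR). Leaving out all libraries of any 1 replicate number ended that call (adjusted p of 0.0537 to 0.131, log2 differences of -1.88 to -1.62), as did either age alone (adjusted p = 0.150 at day 5 and 0.108 at day 70). Tret1-2 was higher in sorted ensheathing glia than in whole brain by 0.95 (standard error 0.30, adjusted p = 0.0106), a call that again rested on GMR10E12 (1.73, adjusted p = 0.00243) and not on GMR56F03 (0.22, adjusted p = 0.739), and that ended without the libraries numbered 1 (adjusted p = 0.0503) or 3 (adjusted p = 0.0895) and at day 5 alone (0.64, adjusted p = 0.152). Its age difference in ensheathing glia, 0.98, was close to that of Tret1-1 but did not pass (standard error 0.42, adjusted p = 0.127). Over the 36 libraries, which share depth and tissue differences, Pearson's r between log2 values of the 2 copies was 0.780, and within the 18 sorted libraries it was 0.833.

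Treh, whose product splits trehalose into glucose, was high in all sorted glia. In astrocyte-like glia it had 29431, 24384 and 20005 normalized counts at day 5 and 22294, 13669 and 16121 at day 70. In sorted GMR56F03 glia it had 14434, 15957 and 16559 at day 5 and 14280, 12468 and 11799 at day 70, and in sorted GMR10E12 glia 14458, 11157 and 10357 at day 5 and 8498, 11188 and 7002 at day 70. Whole brain libraries ran from 1661 to 6357 with a median of 3118 (n = 18), so every sorted library lay above every whole brain library. In the order of the 12 group means, the 6 sorted groups came first and 2 of the 11 neighbouring pairs did not overlap: GMR56F03 at day 5 above GMR56F03 at day 70, and GMR10E12 at day 70 above the first whole brain group.

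Compared with whole brain, Treh was higher in ensheathing glia by 1.73 on the log2 scale (standard error 0.15, adjusted p = 6.09e-10, edgeR) and in astrocyte-like glia by 3.04 (standard error 0.19, adjusted p = 1.52e-07). In folds these were 3.33 and 8.20. The calls held for each ensheathing line (2.07 for GMR56F03, adjusted p = 3.78e-09, and 1.43 for GMR10E12, adjusted p = 0.000365) and at either age. Ensheathing glia had less Treh than astrocyte-like glia, at a log2 ratio of -0.76 (standard error 0.12, adjusted p = 0.000397), which at day 70 alone was -0.69 (adjusted p = 0.0864). Within ensheathing glia, GMR56F03 was above GMR10E12 by 0.48 (standard error 0.12, adjusted p = 0.0184), a call that ended without the libraries of any 1 replicate number (0.34 to 0.55, adjusted p of 0.0726 to 0.130) and at each age alone (adjusted p = 0.276 at day 5 and 0.0796 at day 70).

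Treh fell with age in ensheathing glia by 0.39 on the log2 scale (standard error 0.13, adjusted p = 0.0436, edgeR), from a mean of 13820 ± 2527 to 10873 ± 2673 normalized counts (SD, n = 6 each). In GMR56F03 all young libraries were above all old ones, and in GMR10E12 the ages overlapped. The call was lost without any of 9 of the 12 libraries (adjusted p of 0.0520 to 0.102, log2 differences of -0.43 to -0.32). It held only without replicate 2 of GMR10E12 at day 70, replicate 1 of GMR56F03 at day 5 or replicate 1 of GMR56F03 at day 70, and neither line alone passed (adjusted p = 0.126 for GMR56F03 and 0.189 for GMR10E12). In astrocyte-like glia the age difference was -0.45 (standard error 0.21, adjusted p = 0.251), with overlapping libraries, and in whole brain no change was called (3338 ± 1401 at day 5 and 3142 ± 685 at day 70, SD, n = 9 each). Glial markers moved with age as well: repo fell in both kinds of sorted glia, and the 5 astrocyte-like markers fell in ensheathing glia, with a median log2 difference of -1.28. Their part in the fall of Treh was not tested.

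Tps1, which makes trehalose-6-phosphate for trehalose synthesis, was low in most libraries and high in a few. In sorted ensheathing glia at day 5 it had 0, 4.07 and 2.11 normalized counts in GMR10E12 and 0, 8.17 and 1.64 in GMR56F03, from 0 to 4 reads per library. At day 70 it had 322, 0.929 and 12.2 in GMR10E12 and 22.2, 17.2 and 5.25 in GMR56F03. Replicate 1 of GMR10E12 at day 70 therefore held most of the old ensheathing total, with 441 reads.

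In whole brain at day 5, Tps1 had 10.6 to 40.5 normalized counts with a median of 21.3 (n = 9). At day 70 it had 83.1, 20.9 and 159 in GMR10E12, 8.82, 8.85 and 581 in GMR56F03, and 6.68, 19.2 and 226 in GMR86E01. In each line at least 1 old library stood far above the young ones while another lay within or below their range. Astrocyte-like glia had 4.67, 8.91 and 9.59 at day 5 and 38.5, 9.56 and 24.7 at day 70. None of the 11 neighbouring pairs of group means was free of overlap.

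The fitted age difference of Tps1 was 4.21 on the log2 scale in ensheathing glia (standard error 1.35, adjusted p = 0.0427, edgeR) and 2.44 in whole brain (standard error 0.77, adjusted p = 0.0302). Neither call was stable. In ensheathing glia, 8 of 12 libraries ended it when left out (adjusted p of 0.0613 to 0.211, log2 differences of 2.01 to 4.38), the exceptions being replicates 2 and 3 of GMR10E12 at day 70, replicate 2 of GMR56F03 at day 5 and replicate 3 of GMR56F03 at day 70. Without replicate 1 of GMR10E12 at day 70 the difference was 2.01 (adjusted p = 0.211). In whole brain, leaving out 7 of 18 libraries ended the call: GMR10E12 replicate 1 at day 5 and 3 at day 70, each GMR56F03 library at day 5, GMR56F03 replicate 3 at day 70 and GMR86E01 replicate 3 at day 70 (adjusted p of 0.0578 to 0.214, log2 differences of 1.28 to 2.37). Without replicate 3 of GMR56F03 at day 70 the difference was 1.28 (adjusted p = 0.214).

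The libraries high in Tps1 were those high in fat body genes. Of 7 fat body markers, the yolk protein genes Yp1 and Yp2 and the lipoprotein gene apolpp had the highest levels, whereas the larval storage genes Lsp2 and Fbp1 were at 0 in 30 and 20 of the 36 libraries. The 5 libraries with the highest sums, 7775 to 31684 normalized counts, were also the 5 with the highest Tps1, 83.1 to 581. The other 31 libraries had sums of 760 to 2485 and Tps1 of 0 to 40.5. All 5 came from day 70: GMR10E12 replicates 1 and 3, GMR56F03 replicate 3 and GMR86E01 replicate 3 of whole brain, and GMR10E12 replicate 1 of sorted glia. Yp1 alone had 10807 normalized counts in that sorted library, against 28.6 to 203 in the other sorted ensheathing libraries.

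Without these 5 libraries, a choice made after the values were seen, the age difference of Tps1 in whole brain was -0.70 (adjusted p = 0.226, edgeR) and in ensheathing glia 2.01 (adjusted p = 0.211). In whole brain, 4 of the 5 tested fat body markers rose with age. Tps1 was lower in sorted ensheathing glia than in whole brain, at a log2 ratio of -2.40 (standard error 0.79, adjusted p = 0.0129), and by -1.76 without the same libraries (adjusted p = 0.0158). That call ended without the libraries numbered 3 (-0.54, adjusted p = 0.660), with GMR10E12 as the only ensheathing line (-1.53, adjusted p = 0.275) and at day 70 alone (-1.67, adjusted p = 0.258). In astrocyte-like glia against whole brain the log2 ratio of Tps1 was -1.68 (standard error 0.77, adjusted p = 0.0917, edgeR) and did not pass, although it did by DESeq2 (adjusted p = 0.0414).

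**Figure D4:**
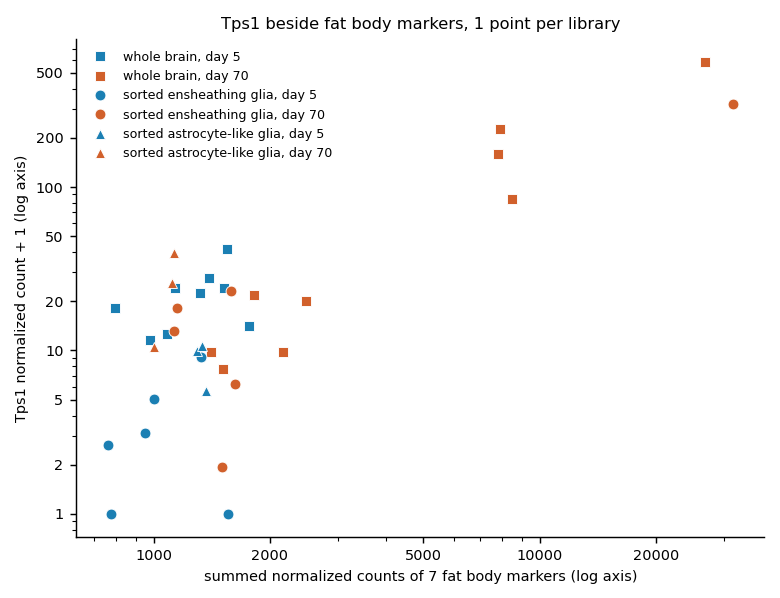
Tps1 (normalized count plus 1, vertical log axis) against the summed normalized counts of 7 fat body markers (horizontal log axis), 1 point per library, by tissue (shape) and age (color). The 5 libraries farthest right, from 7775 on the horizontal axis, all of day 70, hold the 5 highest Tps1 values, from 83.1 to 581.

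Glut1, the glucose carrier, showed the opposite placement to Treh, with its highest levels in whole brain. At day 5 whole brain had 1520, 1198 and 1235 normalized counts in GMR10E12, 1281, 1533 and 1489 in GMR56F03, and 1245, 1194 and 1326 in GMR86E01. At day 70 it had 3763, 2230 and 2853 in GMR10E12, 2008, 2159 and 2240 in GMR56F03, and 1821, 1797 and 1878 in GMR86E01. All 9 old whole brain libraries were above all 9 young ones.

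In sorted GMR10E12 glia Glut1 had 614, 611 and 544 normalized counts at day 5 and 909, 816 and 801 at day 70, and in sorted GMR56F03 glia 778, 705 and 451 at day 5 and 778, 818 and 750 at day 70. Astrocyte-like glia had 224, 230 and 385 at day 5 and 980, 701 and 682 at day 70. No sorted library reached the level of any whole brain library. In the order of group means, the 6 whole brain groups came first, and 4 of the 11 neighbouring pairs did not overlap, among them the lowest whole brain group against old GMR10E12 glia and young GMR10E12 glia against young astrocyte-like glia.

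Glut1 was lower than in whole brain, at a log2 ratio of -1.40 in ensheathing glia (standard error 0.089, adjusted p = 7.17e-12, edgeR) and -1.69 in astrocyte-like glia (standard error 0.16, adjusted p = 3.12e-06). The 11 neuronal markers were all lower in both as well, with median log2 differences of -2.01 and -2.80. The 2 ensheathing lines had nearly the same mean, 716 ± 145 in GMR10E12 and 714 ± 134 in GMR56F03 (SD, n = 6 each), and the difference did not pass (0.02, standard error 0.13, adjusted p = 0.937). Ensheathing glia were above astrocyte-like glia by 0.59 (standard error 0.15, adjusted p = 0.0123). This held at day 5 alone (1.12, adjusted p = 0.00908) but not at day 70 alone (0.05, adjusted p = 0.917), with either ensheathing line alone (0.60, adjusted p = 0.0586, for GMR56F03 and 0.59, adjusted p = 0.0512, for GMR10E12), or without the libraries numbered 1 (0.54, adjusted p = 0.0885) or 2 (0.48, adjusted p = 0.251). Of the 11 neuronal markers, 5 were also higher in ensheathing than in astrocyte-like glia and 0 lower. At day 5 their sums were 6944 to 12480 normalized counts in ensheathing and 3392 to 6095 in astrocyte-like glia. At day 70 the sums were 8099 to 11860 and 9988 to 11746. The part of neuronal RNA in this difference of Glut1 was not tested.

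With age, Glut1 rose in whole brain by 0.66 on the log2 scale (standard error 0.091, adjusted p = 6.71e-05, edgeR), from 1336 ± 140 to 2305 ± 634 normalized counts (SD, n = 9 each). This call held without any 1 of the 18 libraries, with adjusted p of 1.78e-05 to 0.000254. In astrocyte-like glia Glut1 rose by 1.52 (standard error 0.30, adjusted p = 0.0244), with all old libraries above all young ones. That call ended without any 1 library except replicate 3 of day 5 (log2 differences of 1.24 to 1.56, adjusted p of 0.0526 to 0.102). In ensheathing glia the difference was 0.37 (standard error 0.13, adjusted p = 0.0638) and did not pass, although it did by DESeq2 (adjusted p = 0.0443) and without replicate 1 of GMR56F03 at day 5 (0.44, adjusted p = 0.0387).

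The age effect on Glut1 was smaller in ensheathing than in astrocyte-like glia, with an interaction term of -1.10 (standard error 0.29, adjusted p = 0.0168, edgeR). It did not pass without the libraries numbered 1 (-0.74, adjusted p = 0.259) or 2 (-1.05, adjusted p = 0.200) or with either ensheathing line alone (adjusted p = 0.0912 for GMR56F03 and 0.110 for GMR10E12). The difference of either glia type from whole brain in the age effect did not pass: the interaction was -0.38 for ensheathing glia (adjusted p = 0.238) and 0.97 for astrocyte-like glia (adjusted p = 0.107). In astrocyte-like glia 7 of 11 neuronal markers rose with age, and their sum went from 3392 to 6095 normalized counts at day 5 to between 9988 and 11746 at day 70. The astrocyte-like markers fell over the same interval (5 of 5), from a sum of 127498 to 144751 to one of 19305 to 34361. The part of these cells in the rise of Glut1 was not tested. In whole brain 2 neuronal markers rose and 4 fell with age.

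**Figure D5:**
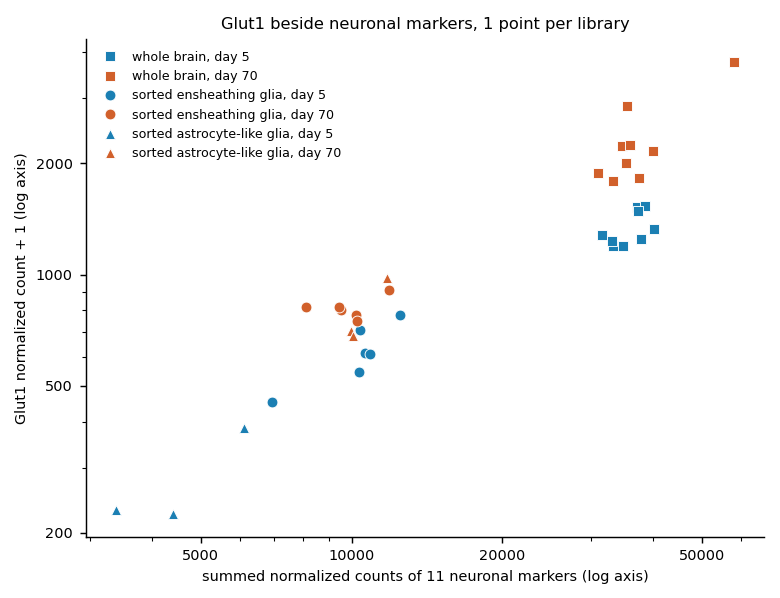
Glut1 (normalized count plus 1, vertical log axis) against the summed normalized counts of 11 neuronal markers (horizontal log axis), 1 point per library, by tissue (shape) and age (color). Whole brain libraries lie at the right with old ones above young ones, and young astrocyte-like glia, with sums of 3392 to 6095, lie lowest at 224 to 385.

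The remaining carriers, sut1 and sut2, had few reads. In sorted ensheathing glia at day 5, sut1 had 5.58, 14.2 and 0 normalized counts in GMR10E12 and 15.4, 12.3 and 9.81 in GMR56F03. At day 70 it had 78.8, 38.1 and 59.0 in GMR10E12 and 60.01, 31.7 and 45.0 in GMR56F03. All 6 old libraries were above all 6 young ones, and the log2 difference was 2.55 (standard error 0.65, adjusted p = 0.0140, edgeR). The call held without any 1 of the 12 libraries (adjusted p of 0.00624 to 0.0384) and for GMR56F03 alone (1.91, adjusted p = 0.0331), and with GMR10E12 alone it was 3.27 (adjusted p = 0.106).

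In whole brain sut1 lay between 0 and 42.1 normalized counts with a median of 19.2 (n = 18), and no age change was called. In astrocyte-like glia it had 0, 85.5 and 81.0 at day 5 and 1.01, 112 and 48.6 at day 70, so libraries numbered 1 were near 0 at both ages and the others were among the highest of all. None of the 11 neighbouring pairs of group means was free of overlap for sut1 or for sut2.

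For sut2, 9 of the 36 libraries were at 0 and the median was 4.79 normalized counts. The highest values were 343 in replicate 3 of GMR86E01 whole brain at day 5, 139 and 180 in replicates 2 and 3 of old astrocyte-like glia, and 32.3 and 42.0 in replicates 1 and 3 of old GMR56F03 glia. No other library exceeded 17.1. The difference of ensheathing over astrocyte-like glia was -2.71 on the log2 scale (standard error 0.88, adjusted p = 0.0541, edgeR), which passed by DESeq2 (adjusted p = 0.0347). The age difference in astrocyte-like glia, 4.00, did not pass (standard error 1.36, adjusted p = 0.127) and also passed by DESeq2 (adjusted p = 0.0129). Over the 36 libraries r between sut1 and sut2, which lie next to each other, was 0.524.

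Other carriers of sugars and related solutes were mostly higher in sorted glia. Of 23 such genes in the table, 15 could be tested between ensheathing glia and whole brain: 13 were higher and 1, sut4, was lower, with a median log2 difference of 1.95 against -0.06 over all genes tested. Reads of sut4 were few, at most 6 in any sorted ensheathing library and 14 in any whole brain library of these lines. The smallest adjusted p belonged to CG42235 (2.09, adjusted p = 2.55e-12, edgeR) and CG9657 (2.13, adjusted p = 1.02e-11), which encode sodium-coupled solute carriers known as kumpel and rumpel. In astrocyte-like glia 9 of 14 were higher and none lower (median 1.59, against -0.06 over all genes), led by CG9657 (2.40, adjusted p = 1.09e-06) and CG6723 (bumpel; 2.92, adjusted p = 1.24e-06). Over all genes 55.4% and 48.6% were called in these comparisons.

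Between the ensheathing lines, 6 of 14 other carriers were called, where 14.6% of all genes were called. The 4 that were lower in GMR56F03 included CG8837 (-4.89, adjusted p = 5.71e-08, edgeR) and CG4797 (-4.29, adjusted p = 1.41e-07), as well as CG4607 (-3.92) and CG1208 (-1.45). CG8837 had 1225 to 2324 normalized counts in sorted GMR10E12 glia and 31.4 to 86.2 in sorted GMR56F03 glia, and CG4797 had 279 to 871 and 10.5 to 49.1. The 2 that were higher in GMR56F03 were CG42235 (0.90) and CG10960 (0.43). The same 2 carriers, CG8837 (3.07, adjusted p = 0.000308) and CG4797 (2.73, adjusted p = 0.000532), led the difference of ensheathing over astrocyte-like glia, where 3 were higher (CG42235 among them) and 1, CG6723, lower, of 14 tested. For both, GMR10E12 stood apart: in old GMR56F03 glia CG8837 had 31.4, 86.2 and 39.0 normalized counts against 5.06, 108 and 159 in old astrocyte-like glia, and CG4797 had 28.6, 17.2 and 10.5 against 7.09, 15.5 and 64.1, with overlap in each. With GMR56F03 as the only ensheathing line 2 carriers were called, and at day 70 alone 0. Over all genes 12.0% (1152) were called between ensheathing and astrocyte-like glia in the main fit, and 161 at day 70 alone. With GMR56F03 alone that number stayed within 1.5 times 1152. The 0 at day 70 thus cannot set the carriers apart from other genes.

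With age in ensheathing glia, 3 of 14 carriers fell, CG9657 (-1.28, adjusted p = 3.62e-05, edgeR), CG42235 (-1.21, adjusted p = 0.000336) and CG6723 (-0.72), and CG1208 rose (1.49). In astrocyte-like glia CG9657 (-1.44, adjusted p = 0.0155), CG1213 (-1.72, adjusted p = 0.0208) and CG6723 (-1.22) fell and CG10960 rose (0.91), of 14 tested, but leaving out 1 library gave 0 to 3 called carriers in place of 4. CG42235 had 574 to 795 normalized counts in young and 348 to 687 in old astrocyte-like glia (-0.40, adjusted p = 0.505). In whole brain CG9657 (-0.70, adjusted p = 0.00941) and CG6723 (-0.58, adjusted p = 0.0348) fell, of 12 tested (1 to 3 called without 1 library), and CG42235 had a log2 difference of 0.22 (adjusted p = 0.256). In sorted GMR56F03 glia CG9657 had 4899 to 5394 normalized counts at day 5 and 2155 to 2585 at day 70, with no overlap. Over all genes 18.2% were called with age in ensheathing glia and 6.44% in astrocyte-like glia. In whole brain the share over all genes was 21.4%, so calls were not more common among the carriers there.

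The age effect on other carriers differed between ensheathing and astrocyte-like glia for CG10960 (-1.002, adjusted p = 0.00526, edgeR) and CG1213 (1.76, adjusted p = 0.0314), and between ensheathing glia and whole brain for CG42235 (-1.37, adjusted p = 0.00168). Without the libraries numbered 2, 0 carriers were called in either comparison, as with GMR56F03 as the only ensheathing line in the first and GMR10E12 in the second. Such fits also called fewer genes over all. Leaving out the libraries of 1 number gave 204 to 876 in place of 1139 and 70 to 121 in place of 425, and GMR10E12 alone gave 43 in the second. In these comparisons 14 and 15 carriers were tested, and over all genes 11.9% and 4.26% were called. Genes named beyond the 2 of smallest adjusted p in each list and comparison were chosen after their values were seen.

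Of 8 tested genes of trehalose and glycogen stores, 6 were higher in ensheathing glia than in whole brain, with a median log2 difference of 1.02, and 6 in astrocyte-like glia, with a median of 1.19, where the median of all genes was -0.06 in both. Over all genes 55.4% and 48.6% were called in these 2 comparisons with whole brain. The same 6 were called in each, GlyS, GlyP, CG9485, AGBE, UGP and Pgm1, of which GlyS, GlyP and AGBE act on glycogen and UGP makes UDP-glucose. The other 2, CG5171 and CG5177, which the list holds for trehalose, did not pass in ensheathing glia (0.03 and -1.04, adjusted p = 0.993 and 0.173, edgeR) or in astrocyte-like glia (-4.45 and -1.11, adjusted p = 0.0509 and 0.435). The smallest adjusted p belonged to the glycogen branching enzyme AGBE (1.52, adjusted p = 3.68e-10, edgeR) and Pgm1, a phosphoglucomutase (1.42, adjusted p = 9.07e-09), in ensheathing glia, and to the glycogen synthase GlyS (1.52, adjusted p = 2.19e-06) and AGBE (1.85, adjusted p = 7.59e-06) in astrocyte-like glia. With age, 1 of 8, CG9485, fell in ensheathing glia (-0.95, adjusted p = 0.0259), and 3 of 8 fell in whole brain: UGP (-0.36), GlyP (-0.25) and CG5177 (-2.19). Over all genes 18.2% and 21.4% were called in these comparisons, and leaving out 1 library gave 0 to 2 and 1 to 4 called genes of the stores. CG5177 was low in whole brain, with 0 to 10.5 normalized counts in old libraries. Young whole brain libraries had 0 to 21.3, apart from 46.1 in replicate 3 of GMR56F03 and 146 in replicate 3 of GMR86E01.

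Among genes of sugar phosphorylation and hormonal or nutrient sensing, 3 were higher and 3 lower of 11 tested in ensheathing glia against whole brain, and 3 higher and 4 lower of 11 in astrocyte-like glia (7 in all). Over all genes 55.4% and 48.6% were called in these comparisons. Pgi (0.96, adjusted p = 3.27e-09, edgeR) and the hexokinase Hex-A (0.82, adjusted p = 8.81e-09) led in ensheathing glia, and the insulin-like peptide Ilp2 (-7.85, adjusted p = 9e-07) and Pgi (1.10, adjusted p = 5.44e-06) in astrocyte-like glia. Hex-A, which phosphorylates glucose, was the 1 of 9 that differed between the lines, lower in GMR56F03 (-0.77, adjusted p = 0.000818). With age it rose in ensheathing glia (0.68, adjusted p = 0.00277) together with the insulin receptor gene InR (0.85, adjusted p = 0.00103), of 9 tested. Hex-A had 1915 to 4815 normalized counts in young and 4053 to 8366 in old ensheathing glia, with no overlap within either line. In whole brain 4 of 12 rose, led by InR (0.38, adjusted p = 0.00865) and the transcription factor gene sug (1.69, adjusted p = 0.0110). Over all genes 14.6% were called between the lines, 18.2% with age in ensheathing glia and 21.4% with age in whole brain.

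The genes with the most similar pattern over the 36 libraries differed from member to member. Pearson's r of log2(normalized count + 1) with Tret1-1 was highest for CG31200 (0.934) and lama (0.928), and with Tret1-2 for CG5191 (0.783) and Cht2 (0.781), out of 8756 genes. The genes most like Treh were CG31705 (0.977) and CG12730 (0.972), and those most like Glut1 were Cngl (0.969) and Gfrl (0.966). For Tps1 they were CG2233 (0.829) and the yolk protein gene Yp1 (0.791), for sut1 CG10222 (0.825) and Pvf1 (0.756), and for sut2 CG12025 (0.636) and GstD5 (0.618). Between members, r of Treh with Glut1 was -0.845 over all libraries, and r of Tret1-1 with Treh was -0.842 within sorted libraries. These libraries share the split into sorted and unsorted cells, line and age, so the values describe those groups and carry no test.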

How the data were processed

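RNA was sequenced from 18 sorted and 18 unsorted (whole brain) samples of female fly brains with Smart-seq3 in paired reads. The authors aligned reads with STAR (version 2.7.3a) to dm6, removed improperly paired reads with SAMtools and counted reads per gene over FlyBase exons in union mode, and the deposited table holds these raw counts. The handling of strand and of molecular identifiers is not given in the sources used here.

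Counts were tested as deposited with edgeR 4.0.16 (quasi-likelihood test, TMM scaling, filterByExpr) in R 4.3.3, with the driver line as a term where a group held more than 1 line. Standard errors are the absolute log2 difference divided by the square root of F. Normalized counts are counts divided by DESeq2 1.42.0 size factors over all libraries. Nothing says that replicates of a group came from separate rearings, so p-values measure the spread between these samples.

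Symbols of 17523 of the 17562 genes were matched to the Ensembl annotation of the same assembly, which gave positions and exon lengths. Of 10 listed genes of trehalose and glycogen stores, 9 were found. The members and all lists were chosen with earlier results of these data known. Besides the members, the 2 genes of smallest adjusted p per list and comparison, and the 2 genes most like each member among genes with a mean of at least 10 normalized counts, were named. Alternatives were DESeq2 and its size factors, other filters, 1 fit over all libraries, a replicate block, single lines or ages, and leaving out libraries. The procedure was tested on simulated data.

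Unsorted suspensions came from the same brains as the sorted cells. That equal replicate numbers mark the same brains is not stated, and was assumed for the block. Their deviations from the group means correlated with a mean r of 0.0867 over 18 pairs (-0.0245 to 0.280). Over 180 other pairs of the same number the mean r was 0.0142, with a wider range (-0.191 to 0.415).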

Additional observations from a re-analysis of the deposited data

Results flagged for a closer look

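Each gene was screened in ensheathing glia and whole brain at each age, with lines pooled, and astrocyte-like glia were not screened. Of these 28 groups of 6 or 9 libraries, 3 held a library far from the others. The chance rate of the rule, about 5 percent, is for independent groups of normal values, whereas these groups share libraries and pool lines. Tps1 had 322 normalized counts in replicate 1 of sorted GMR10E12 glia at day 70, the highest of the old ensheathing libraries. In whole brain at day 70 it had 581 in replicate 3 of GMR56F03. Both libraries were among the 5 with the highest fat body markers. The gene sut2 had 343 normalized counts in replicate 3 of GMR86E01 whole brain at day 5, against 15.6 or less in the other young whole brain libraries.

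By the interaction term of edgeR, the sorted glia types differed in how age changed Tret1-1, at -2.46 on the log2 scale (adjusted p = 0.0495), and Glut1, at -1.10 (adjusted p = 0.0168).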

How the results depend on the processing

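For 32 of the tests of members reported with values there were 473 alternatives. Of these, 375 kept the direction and the side of the threshold, 81 lost the call, 15 gained it and 2 reversed the sign. Reversals were the age difference of Tps1 in whole brain without the libraries of high fat body markers (-0.70, adjusted p = 0.226, edgeR, chosen after seeing the data) and Tret1-1 in ensheathing glia over whole brain with GMR56F03 as the only line (-0.021, adjusted p = 0.948). The other 42 tests of members had 534 alternatives, of which 483 kept direction and side, 4 gained a call, 0 lost one and 47 reversed the sign. Among these tests, the difference of Glut1 between the ensheathing lines (0.02) changed sign in 2 of 12 alternatives, which ran from -0.12 to 0.12.

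Counts of called genes stayed within 1.5 times the main count in 119 of 159 alternatives. With DESeq2, the age effect gave 1224 in place of 553 genes in astrocyte-like glia, and differences of age effects gave 289 in place of 64 (GMR56F03 over GMR10E12), 895 in place of 401 (astrocyte-like glia over whole brain) and 746 in place of 425 (ensheathing glia over whole brain). With no filter the difference between ensheathing lines in age effect gave 257. One fit over all libraries gave 2226 for age in astrocyte-like glia and 786 for its difference from whole brain, which without the libraries of high fat body markers gave 128. A minimum of 10 counts in every library gave 3191 in place of 5532 for ensheathing glia over whole brain.

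Single ages gave 2852 in place of 4558 for astrocyte-like glia over whole brain and 161 in place of 1152 for ensheathing over astrocyte-like glia (both day 70), and 402 in place of 1355 between ensheathing lines (day 5). Age in ensheathing glia gave 825 in place of 1689 without GMR56F03. Age in whole brain gave 676 without GMR56F03 and 1016 without GMR86E01, in place of 2067. With GMR56F03 as the only ensheathing line, the age effect differed from that of astrocyte-like glia for 241 in place of 1139 genes and from that of whole brain for 179, and with GMR10E12 for 43.

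Leaving out replicates gave 5 to 291 genes for the age effect of GMR56F03 over GMR10E12, 201 to 512 for age in astrocyte-like glia, 0 to 162 for its difference from whole brain, 204 to 876 for ensheathing over astrocyte-like age effects, 70 to 121 for ensheathing glia over whole brain, 507 to 1035 between ensheathing lines and 444 to 758 between glia types. The causes were not tested, beyond fewer libraries where some were left out.

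With the replicate block, differences of age effects from whole brain gave 269 (ensheathing glia) and 212 (astrocyte-like glia). No call of a member in sorted glia over whole brain changed with sorted and unsorted libraries of 1 number as pairs. Where libraries shared only a number, the block ended the age calls of Tps1 in ensheathing glia (adjusted p = 0.139, edgeR) and whole brain (1.33, adjusted p = 0.217) and of Treh in ensheathing glia (adjusted p = 0.0512), and gave calls in astrocyte-like glia to Tret1-1 (3.85, adjusted p = 0.00883) and sut2 (4.34, adjusted p = 0.0440). The genes Tps1, Tret1-2, sut1 and sut2 had few reads in most libraries, and the part of depth in this was not tested.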
